A study of Homo sapiens with 9 samples.

Results

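The genes described here encode secreted and membrane-bound matrix proteases, the urokinase plasminogen activator (uPA) system and the tissue inhibitors of metalloproteinases (TIMPs). They are MMP1, MMP2, MMP14, MMP15, PLAU, PLAUR, PLAT, TIMP1 and TIMP2. They were chosen by name, with earlier results of these data known. All 9 were found, each once, among the 58735 genes of the deposited count table. RNA had been sequenced from 9 samples of MIA PaCa-2, an established pancreatic cancer cell line labelled wild type, with 3 samples per treatment. One group received 1 μM SCH772984, an inhibitor of ERK1/2, another received 1 μM compound 1, an inhibitor of both TBK1 and IKKε, and the control group received 0.1% DMSO, the vehicle. All were harvested after 24 h. The labels number the samples of a group but do not say whether they were separate cultures, so p-values measure the spread between these samples, which may be technical.

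Matrix metalloproteinases (MMPs) are zinc proteases that cleave collagens and other matrix proteins. They are made as inactive proenzymes and are blocked by the TIMPs. MMP1 is a secreted interstitial collagenase, MMP2 a secreted gelatinase, and MMP14 and MMP15 are anchored in the cell membrane. In the uPA system, PLAU (uPA) binds its cell-surface receptor PLAUR (uPAR) and converts plasminogen to plasmin, a broad serine protease, while PLAT (tissue-type plasminogen activator) does the same mainly on fibrin. These proteases are known for their role in invasion, and MMP1, PLAU, PLAUR and TIMP1 are textbook targets of the AP-1 and ETS transcription factors that ERK activates.

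Because groups of these genes moved in the same direction with SCH772984, the RefSeq promoters of GRCh38.p14, 250 bases before to 50 after a transcription start, were read for short motifs, searched on both strands. Of the 9 genes, 5 had such an entry, with 6 windows in all, since PLAU had 2 starts. MMP1, MMP2, PLAT and TIMP2 had none, so their promoters were not read. The motifs were the AP-1 site TGANTCA, the single-letter variant TGAGTAA, and CCGGAA, a core bound by ETS factors; the AP-1 letters and the variant cannot match at the same position. These were present in 7.71%, 2.57% and 17.2% of 35116 promoter windows of this length. The windows of 3 genes that fell with SCH772984 and of MMP15, which rose, are shown with any motif in capitals.
PLAUR, chr19:43670120-43670419, minus strand: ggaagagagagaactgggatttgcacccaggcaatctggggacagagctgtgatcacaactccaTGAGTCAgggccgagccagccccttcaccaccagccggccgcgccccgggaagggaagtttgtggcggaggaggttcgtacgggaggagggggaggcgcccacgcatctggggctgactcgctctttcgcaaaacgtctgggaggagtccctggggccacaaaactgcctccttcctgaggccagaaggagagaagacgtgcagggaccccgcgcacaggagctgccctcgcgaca
TIMP1, chrX:47582186-47582485, plus strand: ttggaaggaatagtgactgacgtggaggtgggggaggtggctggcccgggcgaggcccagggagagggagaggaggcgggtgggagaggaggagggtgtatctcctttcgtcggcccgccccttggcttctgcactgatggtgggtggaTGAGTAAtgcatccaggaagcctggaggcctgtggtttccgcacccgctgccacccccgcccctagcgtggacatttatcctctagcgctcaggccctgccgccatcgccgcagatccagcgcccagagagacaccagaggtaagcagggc
PLAU, chr10:73910882-73911181, plus strand: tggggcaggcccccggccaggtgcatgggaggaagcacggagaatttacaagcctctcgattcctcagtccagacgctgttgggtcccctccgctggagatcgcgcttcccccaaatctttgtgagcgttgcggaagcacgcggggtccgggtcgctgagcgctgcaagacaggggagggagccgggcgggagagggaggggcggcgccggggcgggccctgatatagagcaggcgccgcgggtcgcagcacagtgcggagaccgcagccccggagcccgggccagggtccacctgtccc
MMP15, chr16:58025504-58025803, plus strand: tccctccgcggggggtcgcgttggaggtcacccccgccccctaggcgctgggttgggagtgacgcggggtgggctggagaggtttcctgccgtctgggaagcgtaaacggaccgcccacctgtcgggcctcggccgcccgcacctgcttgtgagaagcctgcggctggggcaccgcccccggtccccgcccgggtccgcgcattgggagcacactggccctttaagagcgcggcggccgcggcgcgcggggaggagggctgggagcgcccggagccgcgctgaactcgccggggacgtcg
The PLAUR window held 1 AP-1 site, with its first base at position -186 from the start, and the TIMP1 window held 1 copy of the variant at -101. None of the 3 motifs was found in either PLAU window or in the MMP15 window, and the MMP14 window held 1 CCGGAA at position 41. A match describes the letters only. The MMP15 window was 75.3% G and C with 39 CG dinucleotides, against 64.0% and 18 for PLAUR, 65.0% and 16 for TIMP1 and 70.0% and 28 for this PLAU window.

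Library totals were 9464432 to 13887859 counts. Compound 1 replicate 1 stood apart from its group over all genes, with a chi-square per degree of freedom of 10.1 and 7.61 against replicates 2 and 3. Those differed by 2.66, the DMSO pairs by 2.34 to 3.15 and the SCH772984 pairs by 4.03 to 6.401. The compound 1 changes of the tested members against DMSO are therefore also given without this library. Levels are given as CPM, the counts scaled to a common total, after TMM normalization of the libraries. Changes are log2 fold changes from edgeR's quasi-likelihood test fitted on all genes with enough counts, and a gene was called at a Benjamini-Hochberg adjusted p under 0.05. A pair of ERK outputs served as a check of the treatment. SPRY4, a feedback inhibitor of the pathway, averaged 231 CPM with DMSO and 2.00 with SCH772984, and DUSP6, an ERK phosphatase, 4.14 and 0.0281; both were called lower in edgeR (adjusted p = 6.44e-40 and 4.30e-13). With compound 1 their log2 fold changes were 0.06 and 0.01, and neither was called in edgeR (adjusted p = 0.703 and 0.989). Of the epithelial markers, KRT8, KRT18 and KRT19 were expressed, CDH1 had 5 counts at most and EPCAM was at 0 in every library. These 5 markers summed to 3464 to 3729 CPM in the DMSO libraries, 2967 to 3736 after compound 1 and 1128 to 1276 after SCH772984. KRT8 went from 2411 to 2551 CPM with DMSO to 722 to 816 with SCH772984 and KRT18 from 826 to 912 down to 155 to 175, while KRT19 overlapped at 227 to 278 and 251 to 288. VIM, the mesenchymal marker, had 2401 to 2576 CPM with DMSO, 2471 to 2877 after compound 1 and 1927 to 2283 after SCH772984. Of the 3 leukocyte markers, 2 were at 0 and CD68 had at most 1 count. The 3 endothelial markers summed to 2.87 to 4.48 CPM in the controls, 6.23 to 6.77 after compound 1 and 0 to 0.535 after SCH772984, and the 4 fibroblast markers to 457 to 506 CPM in the controls, 468 to 531 after compound 1 and 985 to 1114 after SCH772984, nearly all from COL1A2, while DCN and LUM had at most 1 count. Mitochondrial genes took 3.33% to 3.98% of counts in the DMSO and compound 1 libraries and 6.23% to 7.52% with SCH772984. The part of the shifts in these markers and in mitochondrial RNA in the results below was not tested, and in bulk RNA fewer expressing cells and less RNA per cell cannot be told apart.

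**Figure D1:**
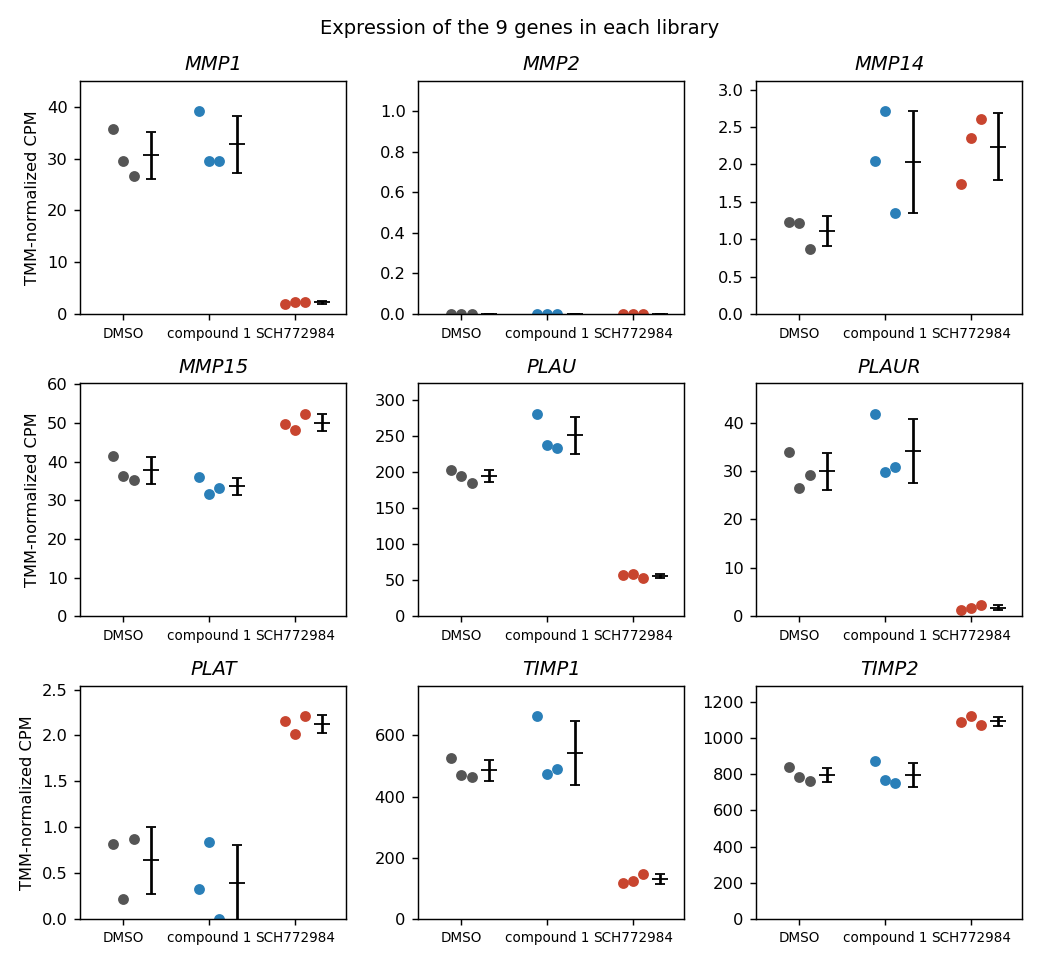
TMM-normalized CPM (vertical axes, linear from 0) of each of the 9 genes in the 3 libraries of each treatment. Points are libraries, and the black mark with bars is the mean ± SD of the group. MMP1, PLAU, PLAUR and TIMP1 lie far lower with SCH772984 than in the other groups, PLAT and TIMP2 lie higher, and MMP2 is at 0 throughout.

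With SCH772984, MMP1, PLAU, PLAUR and TIMP1 fell, while MMP14, MMP15, PLAT and TIMP2 rose. The largest losses were in PLAUR and MMP1, at 16.4-fold and 13.8-fold, and the rises of the well expressed MMP15 and TIMP2 were both below 1.5-fold. Of the 9 genes, 8 had enough counts to be tested, and all 8 were called, 4 in each direction, where 72.8% of the 13834 genes tested were called, 37.2% as higher and 35.5% as lower, so that genes at large were also called in nearly equal numbers each way. With at least 2-fold required, 6 of the 8 were called, 4 lower and 2 higher, against 28.8% of all tested genes, 10.6% lower and 18.2% higher. In each of the 8 genes the SCH772984 and DMSO libraries did not overlap, which also held for 74.4% of tested genes, 38% above DMSO and 36.4% below. The median absolute log2 fold change was 1.75 over the 8 genes and 0.59 over all tested genes. Because the genes were chosen with earlier results known, the comparisons with all tested genes are descriptive only. PLAT passed the filter on low counts only through its SCH772984 libraries, and MMP14 had 2 of its 3 DMSO libraries over the filter's level, so the filter itself favoured a rise in both, and the counts over tested genes lean on it.

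PLAUR, the uPA receptor (ENSG00000011422, chromosome 19 of GRCh38 from 43646095 to 43670547, minus strand), fell most. Its levels were 34.0, 26.6 and 29.2 CPM in DMSO replicates 1 to 3 and 1.33, 1.77 and 2.28 CPM with SCH772984. The groups did not overlap, and the highest SCH772984 library was below 3 CPM. The log2 fold change was -4.04 (standard error 0.18, 95% interval -4.40 to -3.68, adjusted p = 3.33e-24 in edgeR), and 0.108% of all tested genes had a lower value. The SCH772984 libraries held 16 to 34 PLAUR counts each, so counting error limits this estimate.

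MMP1, the collagenase (ENSG00000196611, chromosome 11 from 102789920 to 102798160, minus strand), had 35.6, 29.6 and 26.7 CPM with DMSO and 1.91, 2.36 and 2.34 CPM with SCH772984. Again no library of one group reached the other. Its log2 fold change was -3.79 (standard error 0.17, 95% interval -4.13 to -3.45, adjusted p = 5.04e-24 in edgeR), and 0.145% of tested genes lay lower. Its exons share 150 bases with WTAPP1, a pseudogene on the opposite strand that had at most 3 counts in a library.

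PLAU, the urokinase itself (ENSG00000122861, chromosome 10 from 73909177 to 73917497, plus strand), had 203, 195 and 186 CPM with DMSO and 56.8, 59.3 and 53.9 CPM with SCH772984. The spread within each group was small beside this gap. The log2 fold change was -1.79 (standard error 0.07, adjusted p = 3.39e-26 in edgeR), a 3.45-fold fall. PLAU exons share 916 bases with C10orf55 on the opposite strand, and how strand was treated in counting is not given in the sources used here. C10orf55 itself had 7 to 24 counts per library and averaged 1.90 CPM in the DMSO libraries, 2.42 after compound 1 and 0.63 after SCH772984.

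TIMP1 (ENSG00000102265, chromosome X from 47582313 to 47586789, plus strand) inhibits most secreted MMPs. It had 526, 469.5 and 464 CPM with DMSO and 117, 123 and 148 CPM with SCH772984. All SCH772984 libraries were below all DMSO libraries. The log2 fold change was -1.91 (standard error 0.07, adjusted p = 2.98e-23 in edgeR), or 3.76-fold lower. The gene lies within SYN1, which is on the opposite strand, shares no exon bases with it and had 2 to 22 counts per library.

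TIMP2 (ENSG00000035862, chromosome 17 from 78852977 to 78925387, minus strand), which also takes part in the activation of proMMP2 by MMP14, moved the other way. It had 840.4, 787 and 766 CPM with DMSO and 1089, 1122 and 1074 CPM with SCH772984. The groups did not overlap. Its log2 fold change was 0.45 (standard error 0.06, adjusted p = 3.68e-09 in edgeR), a rise of 1.37-fold, and 32.7% of tested genes rose further. TIMP2 shares 198 exon bases with CEP295NL on the same strand, which had 23 to 54 counts per library.

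MMP15 (ENSG00000102996, chromosome 16 from 58025566 to 58046901, plus strand) had 41.6, 36.4 and 35.2 CPM with DMSO and 49.8, 48.1 and 52.3 CPM with SCH772984. Every SCH772984 library was above every DMSO library. It rose by 0.40 on the log2 scale (standard error 0.09, adjusted p = 6.78e-05 in edgeR), or 1.32-fold. Scaling by library size alone shifted the median of all genes by 0.17 with SCH772984. Under it the log2 fold changes were 0.58 for MMP15 and 0.63 for TIMP2, and the direction of all 8 genes was the same.

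MMP14 and PLAT were scarce. MMP14 (ENSG00000157227, chromosome 14 from 22836557 to 22849027, plus strand) is the main membrane-type collagenase and had 12, 11 and 8 counts with DMSO (1.23, 1.21 and 0.874 CPM) and 21, 28 and 39 counts with SCH772984 (1.74, 2.36 and 2.61 CPM). Its log2 fold change was 1.01 (standard error 0.36, 95% interval 0.28 to 1.74, adjusted p = 0.0117 in edgeR), but it was not called without DMSO replicate 3 (adjusted p = 0.0635) or without SCH772984 replicate 3 (0.0630). PLAT (ENSG00000104368, chromosome 8 from 42175233 to 42207724, minus strand) had 8, 2 and 8 counts with DMSO and 26, 24 and 33 with SCH772984. It rose by 1.71 on the log2 scale (standard error 0.42, 95% interval 0.86 to 2.56, adjusted p = 0.000368 in edgeR) to 2.13 ± 0.0975 CPM (SD, n = 3). Both genes stayed under 3 CPM in all libraries.

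MMP2 (ENSG00000087245, chromosome 16 from 55389700 to 55506691, plus strand), the gelatinase, had 0 counts in all 9 libraries. A count of 0 allows up to 3 counts per library, or 0.201 to 0.331 CPM, counting error only. No fold change can be given for it.

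**Figure D2:**
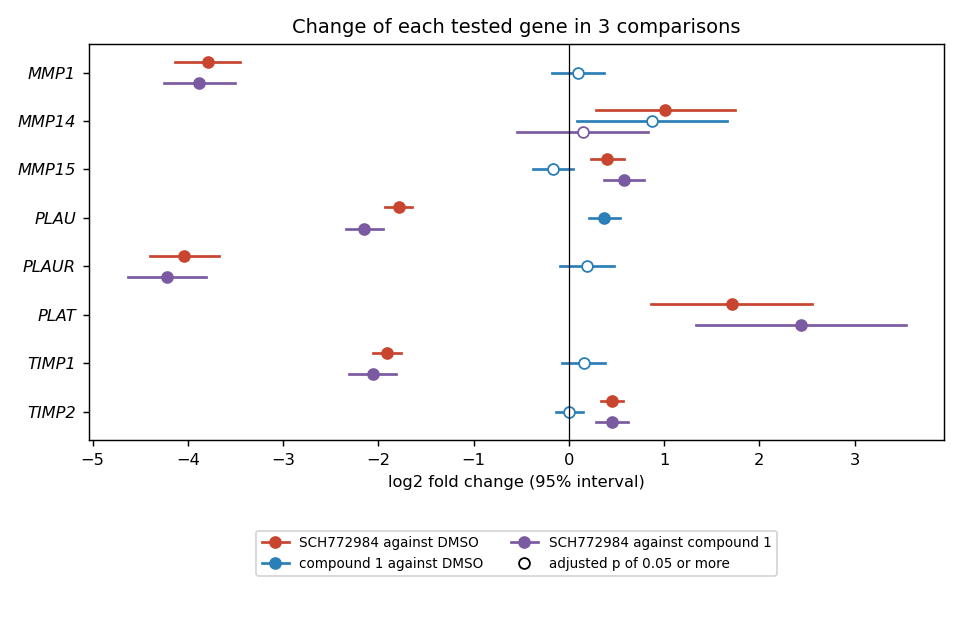
Log2 fold change (horizontal axis) with its 95% interval for the tested genes, in 3 edgeR comparisons. Filled points passed an adjusted p of 0.05 and open points did not. SCH772984 values range from -4.04 for PLAUR to 1.71 for PLAT against DMSO, while the compound 1 values lie between -0.16 and 0.87.

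With compound 1, a single member was called. PLAU was 1.29-fold higher, opposite to its fall with SCH772984. Of the 7 genes tested against DMSO, 1 was higher and 0 were lower in edgeR after adjustment, where 0.864% of the 12849 genes tested were called, 0.49% as higher and 0.374% as lower. DESeq2 also called 1 of the genes higher and 0 lower, and it gave no adjusted p for MMP14. By an unadjusted p of 0.05, 2 were higher and 0 lower, against 7.35% and 7.69% of all tested genes, 15% together. With at least 2-fold required beside the adjusted p, 0 members were called, against 0.0467% of all tested genes, all of them higher. Without compound 1 replicate 1, the library that stood apart, 9.56% of 13084 genes tested were called in edgeR, and of the members again PLAU alone. PLAT and MMP2 did not pass the filter on low counts. Compound 1 and SCH772984 were compared with the same DMSO libraries.

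PLAU had 281, 239 and 234 CPM in compound 1 replicates 1 to 3, all above the highest DMSO library at 203 CPM. Its log2 fold change was 0.37 (standard error 0.08, 95% interval 0.21 to 0.53, adjusted p = 0.0365 in edgeR), and 7.49% of tested genes rose further. The size of the change was similar whichever library was left out, at 0.29 to 0.42, but the adjusted p was not. It was 0.195, 0.263 and 0.188 without DMSO replicate 1, 2 or 3, and 0.0753 without compound 1 replicate 3. Without compound 1 replicate 1, the highest library, the log2 fold change was 0.29 and the adjusted p 0.000543 in edgeR, and with DESeq2 on all libraries the adjusted p was 0.00544.

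MMP14 had 2.04, 2.71 and 1.35 CPM with compound 1 (19, 26 and 13 counts). All 3 values were above the highest DMSO library, a separation that 10.3% of all tested genes showed upward and 10.6% downward, 20.9% together. Its log2 fold change of 0.87 (95% interval 0.08 to 1.66) was not called in edgeR (unadjusted p = 0.0322, adjusted p = 0.274), nor without compound 1 replicate 1 (0.87, adjusted p = 0.228), and it too had 2 DMSO libraries over the filter's level.

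The other tested members overlapped between compound 1 and DMSO. MMP1 had 39.1, 29.5 and 29.6 CPM with compound 1 (log2 fold change 0.10, 95% interval -0.18 to 0.37). PLAUR had 41.8, 29.7 and 30.9 CPM (0.19, -0.09 to 0.47), and TIMP1 had 662, 472 and 489 CPM (0.16, -0.07 to 0.38). For each of these 3 genes compound 1 replicate 1 was the highest library of the series, and without it the log2 fold changes were -0.048 for MMP1, 0.023 for PLAUR and -0.011 for TIMP1. MMP15 had 36.001, 31.7 and 33.1 CPM (-0.16, -0.38 to 0.05) and TIMP2 had 875, 769.5 and 751 CPM (0.0047, -0.14 to 0.15), and without replicate 1 their log2 fold changes were -0.21 and -0.063. None of these 5 genes was called in edgeR (adjusted p = 0.478 to 0.985). PLAT had 3, 8 and 0 counts with compound 1, within the range of the DMSO libraries apart from the library at 0.

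The direct comparison of the inhibitors tests where they differ. SCH772984 gave lower levels than compound 1 for MMP1, PLAU, PLAUR and TIMP1 and higher levels for MMP15, PLAT and TIMP2, so that 7 of 8 tested members were called, 3 higher and 4 lower. Of the 13863 genes tested, 66.3% were called in edgeR, 33.7% as higher and 32.6% as lower. With at least 2-fold required, 1 member was higher and 4 were lower, against 16.5% and 10.1% of tested genes, 26.6% together. PLAUR was 18.6-fold lower (log2 difference -4.22, standard error 0.20, adjusted p = 2.46e-13 in edgeR) and MMP1 14.7-fold lower (-3.88, 0.18, 1.79e-13). PLAU was 4.43-fold lower (-2.15, 0.09, 9.34e-14) and TIMP1 4.17-fold lower (-2.06, 0.12, 1.04e-11). TIMP2 was 1.37-fold and MMP15 1.49-fold higher with SCH772984 (adjusted p = 3.97e-05 and 4.18e-05 in edgeR), and PLAT, again tested only through its SCH772984 libraries, was 5.41-fold higher (0.0004001). Its log2 difference of 2.43 was 3.66 without compound 1 replicate 2 and 1.83 without compound 1 replicate 3, the library at 0 counts. MMP14 was not called (log2 difference 0.15, 95% interval -0.54 to 0.83, adjusted p = 0.709 in edgeR), an interval that runs from 1.45-fold lower to 1.78-fold higher. Without compound 1 replicate 1 the counts of members called were again 3 higher and 4 lower.

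Levels of different genes were compared as TMM-normalized CPM per kilobase of the gene's exon length in the table. With DMSO, TIMP1 led with 316 ± 22.2 (SD, n = 3), above 99.5% of 16028 protein-coding genes with a count. TIMP2 followed at 142 ± 6.83, PLAU at 66.0 ± 2.91, MMP1 at 15.5 ± 2.32, MMP15 at 8.54 ± 0.767, PLAUR at 6.71 ± 0.844, MMP14 at 0.248 ± 0.0448 and PLAT at 0.0964 ± 0.0548. MMP2 came last at 0. No neighbours in this order overlapped between libraries, although MMP15 and PLAUR differed by only 1.27-fold. The length covers the exons of all annotated transcripts, 16 for PLAUR and 1 for MMP1, so the order depends on the annotation. Before division by length, PLAUR and MMP1 averaged 29.9 and 30.6 CPM with DMSO. The inhibitors of the family thus stood above all its proteases in the control cells.

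With SCH772984 the order changed at the top and in the middle. TIMP2 led with 194 ± 4.32 CPM per kilobase and TIMP1 was second with 84.0 ± 10.4. PLAU, at 19.2 ± 0.912, kept its rank of 3, and MMP15 at 11.3 ± 0.488 passed MMP1 at 1.12 ± 0.130. MMP14 at 0.501 ± 0.100 and PLAUR at 0.402 ± 0.107 overlapped, as did PLAUR and PLAT at 0.322 ± 0.0147. PLAUR thus went from a level above 65.9% of protein-coding genes with DMSO to one above 29.1% with SCH772984, and MMP1 from 81.0% to 37.4%. With compound 1 the order was that of DMSO, except that PLAUR at 7.66 ± 1.495 and MMP15 at 7.60 ± 0.498 exchanged places and overlapped.

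**Figure D3:**
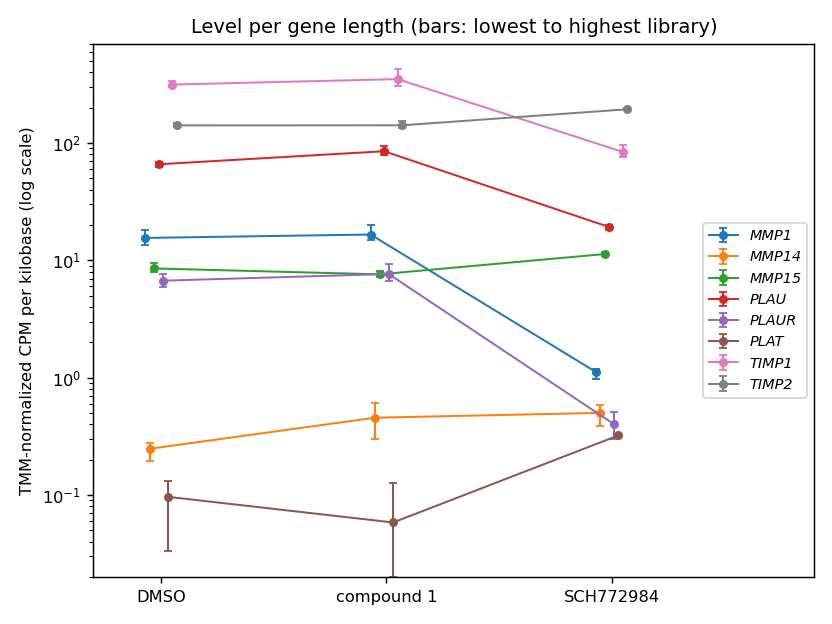
TMM-normalized CPM per kilobase (log axis) of the 8 detected genes in each treatment. Points are means of 3 libraries, lines join the points of a gene and bars run from the lowest to the highest library; the PLAT bar with compound 1 reaches the foot of the axis because 1 library had 0 counts. TIMP2 passes TIMP1, and MMP15 passes MMP1, with SCH772984.

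Ratios of counts within a library do not depend on how libraries are scaled. With 3 libraries against 3 the two-sided exact permutation test cannot give a p below 0.1. There were 5.97 to 7.35 PLAU counts for each PLAUR count with DMSO and 23.7 to 42.8 with SCH772984, a ratio 4.95-fold higher (exact permutation p = 0.1). With compound 1 the ratio was 6.73 to 8.04, which overlapped DMSO (exact permutation p = 0.2). MMP1/TIMP1 was 0.0575 to 0.0678 with DMSO, 0.0591 to 0.0624 with compound 1 and 0.0159 to 0.0191 with SCH772984. PLAU/PLAT, from only 2 to 8 PLAT counts per DMSO library, went from 212.5 to 886 with DMSO to 24.4 to 29.3 with SCH772984. With compound 1 it was 286 to 873 in the 2 libraries that had a PLAT count, which overlapped DMSO. MMP14/TIMP2, from few MMP14 counts, went from 0.00114 to 0.00154 with DMSO to 0.00160 to 0.00243 with SCH772984 and 0.00179 to 0.00352 with compound 1. A ratio chosen after the values were seen, TIMP1/TIMP2, was 0.597 to 0.625 with DMSO, 0.614 to 0.757 with compound 1 and 0.108 to 0.137 with SCH772984.

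**Figure D4:**
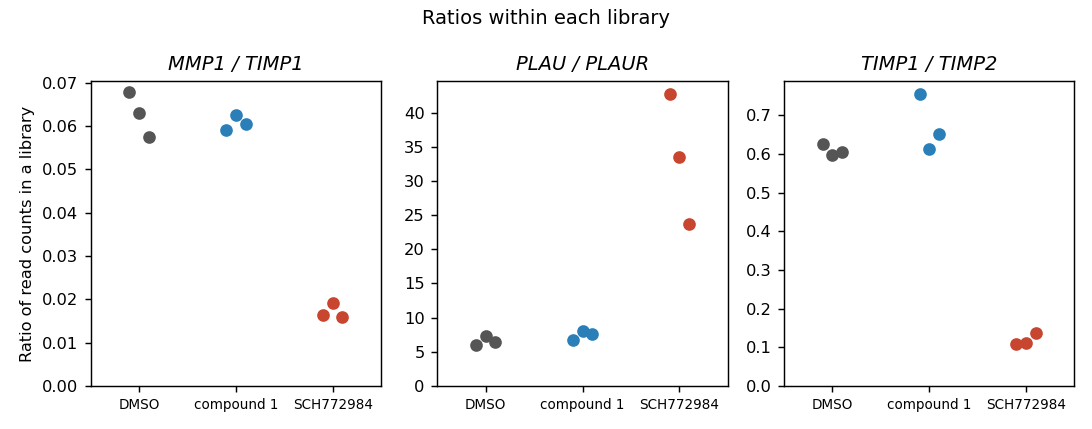
Ratio of read counts of 2 genes in each library (vertical axes, linear from 0) by treatment, 1 point per library. MMP1/TIMP1 and TIMP1/TIMP2 are lower and PLAU/PLAUR higher in the 3 SCH772984 libraries than in all DMSO and compound 1 libraries.

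Genes with the most similar pattern were ranked by the root mean square difference over the 9 libraries of log2 CPM, taken relative to each gene's own DMSO mean, among 9957 protein-coding genes with at least 5 CPM on average. MMP14 and PLAT were too low to enter. For MMP1 the nearest genes were NOG (0.16) and VGF (0.18), and for PLAUR they were NRROS (0.18) and VGF (0.19). MMP1 and PLAUR themselves differed by 0.21, and of the 9956 other genes 4 were closer to MMP1 and 2 were closer to PLAUR. For PLAU the nearest were SIPA1L2 (0.12) and EXTL2 (0.14), and for TIMP1 they were FXYD5 (0.077) and TACC3 (0.12). For MMP15 they were NECTIN2 (0.063) and LOXL2 (0.070), and for TIMP2 DKK1 (0.041) and GNAI2 (0.051). TIMP1 and TIMP2, in contrast, differed by 1.38.

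The rest of the proteolytic network was described with a list of 96 other genes, also chosen with earlier results of these data known. With SCH772984, 43 of them were tested, and 24 were higher and 10 lower in edgeR after adjustment, where 37.2% and 35.5% of all tested genes were called higher and lower, with a median log2 fold change of 0.31 against 0.03 over all tested genes. Of these 43, 9 had fewer than 3 DMSO libraries over the filter's level and 2 had fewer than 3 SCH772984 libraries over it, with ADAMTS17 in both counts, so that whether these genes were tested depended on their level in the other group. With compound 1, 0 of 37 tested genes were called in edgeR, against 0.864% of all tested genes, and 0 in DESeq2, where 6 had no adjusted p. By an unadjusted p of 0.05, 4 were higher and 0 lower, against 7.35% and 7.69% of all tested genes; the 4, named after their values were seen, were ADAM8, ADAMTS4, CTSL and CTSV. Without compound 1 replicate 1, 1 list gene, CTSL, was called higher and 3, ADAM15, ANXA2 and ENO1, lower in edgeR after adjustment, by 0.14 to 0.21 on the log2 scale, where 3.46% and 6.10% of all tested genes were called.

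In the plasminogen system, 7 genes were higher and 5 lower of 13 tested with SCH772984, against 37.2% and 35.5% of all tested genes. SERPINE2, which inhibits both plasminogen activators, fell from 10.6 ± 1.51 CPM with DMSO to 2.88 ± 0.698 with SCH772984 (SD, n = 3; log2 fold change -1.87, adjusted p = 5.44e-11 in edgeR). PLGRKT, a plasminogen receptor, fell from 11.4 to 4.24 CPM (-1.43, 4.14e-09). LRP1, an endocytic receptor that takes part in the clearance of uPA, went from 20.9 ± 1.20 to 180 ± 7.86 CPM (log2 fold change 3.10, adjusted p = 2.12e-32 in edgeR), MRC2 from 41.9 ± 1.75 to 193 ± 4.28 (2.20, 6.83e-29) and IGF2R from 424 ± 21.0 to 729 ± 28.2 (0.78, 1.04e-15). Plasminogen itself, PLG, had 0 counts in all libraries. With compound 1, 0 of 12 tested genes were called in edgeR, against 0.864% of all tested genes.

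Of 19 other MMP genes, 6 were tested with SCH772984, and 4 were higher and 0 lower, against 37.2% and 35.5% of all tested genes. MMP11 (stromelysin-3) was the only one of these called among genes averaging at least 5 CPM, and rose from 12.1 ± 1.56 to 31.1 ± 5.64 CPM (log2 fold change 1.36, adjusted p = 1.94e-12 in edgeR). MMP10, MMP19 and MMP25 were also called but averaged 0.992 to 2.00 CPM with SCH772984 and passed the filter through their SCH772984 libraries. MMP7, MMP26 and MMP27 had 0 counts throughout. Of 3 tested with compound 1, 0 were called in edgeR, and 0 had an unadjusted p under 0.05. Over all tested genes these shares were 0.864% and 15%.

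Of 27 ADAM and ADAMTS proteases, 12 were tested with SCH772984, and 6 were higher and 2 lower, or 8 called in all, where 72.8% of all tested genes were called. ADAM19, with 1 DMSO library and 3 SCH772984 libraries over the filter's level, went from 1.02 ± 0.457 to 19.4 ± 1.16 CPM (log2 fold change 4.21, adjusted p = 1.90e-21 in edgeR), ADAMTS7 from 8.61 ± 1.93 to 29.4 ± 3.53 (1.76, 6.96e-15) and ADAM17, the sheddase of EGFR ligands, from 67.8 ± 1.89 to 109.6 ± 8.33 (0.69, 2.57e-11). ADAMTS4 (aggrecanase-1), which passed the filter through its DMSO libraries only, fell from 5.72 ± 1.34 to 0.535 ± 0.105 CPM (-3.39, 3.39e-12) and ADAM15 by 0.14 on the log2 scale (adjusted p = 0.0482 in edgeR), with overlapping groups. Of 11 tested with compound 1, 0 were called in edgeR and 2 were above DMSO by an unadjusted p of 0.05. Over all tested genes these shares were 0.864% and 7.35%. One of the 2 was ADAMTS4, at 9.24 CPM (log2 fold change 0.69, unadjusted p = 0.00433, adjusted p = 0.127 in edgeR).

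Of 10 other inhibitors and activators of metalloproteinases, 4 were tested with SCH772984, and 2 were higher and 0 lower, again where 72.8% of all tested genes were called. Both encode proprotein convertases, which remove the prodomains of membrane-type MMPs. FURIN rose from 66.3 ± 3.29 to 125 ± 4.47 CPM (log2 fold change 0.91, adjusted p = 2.25e-15 in edgeR) and PCSK6 by 0.45 on the log2 scale (0.000255). TIMP3 and TIMP4 had 0 counts in all libraries and RECK at most 1. Of 9 cell-surface serine proteases and their inhibitors, 1 was tested, SPINT2, an inhibitor of matriptase and hepsin, which fell by 0.35 on the log2 scale (adjusted p = 0.000535 in edgeR) with overlapping groups. A last group of 11 genes held other matrix-cleaving proteases, cathepsins among them, and the cathepsin inhibitor CST3. Of these 11, 7 were tested with SCH772984, and 5 were higher and 2 lower, against 37.2% and 35.5% of all tested genes. TLL2, among those tested, passed the filter only through its SCH772984 libraries. CTSK rose from 4.23 ± 0.387 to 11.1 ± 1.49 CPM (log2 fold change 1.39, adjusted p = 7.95e-09 in edgeR), BMP1 by 0.50 and CTSV by 0.35, while CTSL fell by 0.30 and CST3, the cathepsin inhibitor cystatin C, fell by 0.45. With compound 1, 0 of 4, 0 of 1 and 0 of 6 tested genes of these groups were called in edgeR, and 0, 0 and 2 had an unadjusted p under 0.05. Over all tested genes these shares were 0.864% and 15%.

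**Figure D5:**
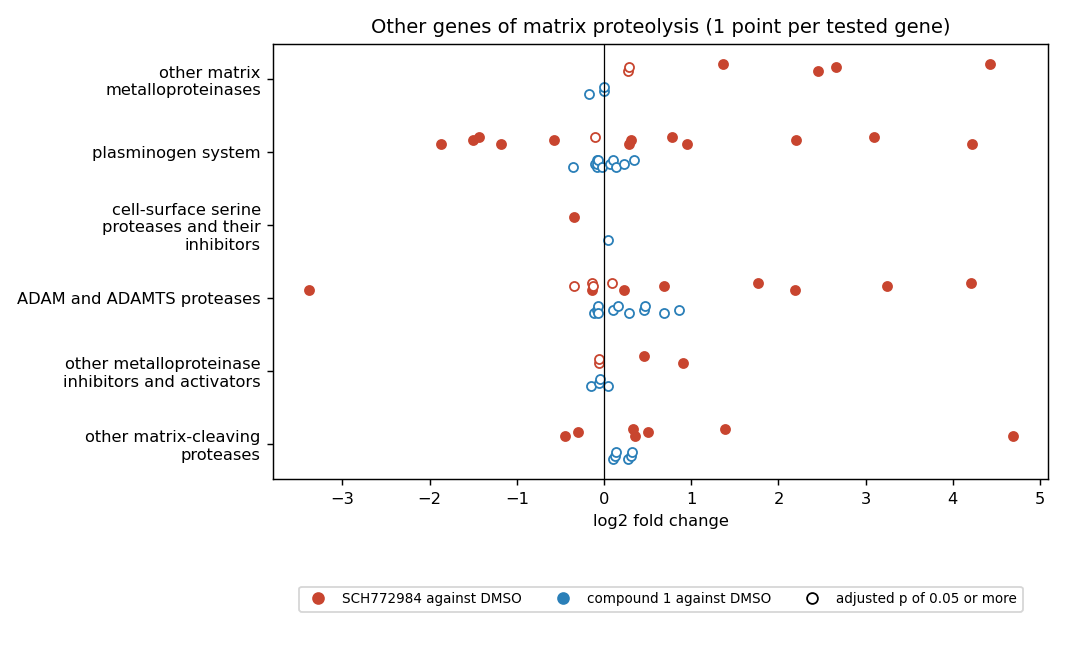
Log2 fold change (horizontal axis) of each tested gene of the 6 groups of the wider list, with SCH772984 and with compound 1 against DMSO. Filled points passed an adjusted p of 0.05 in edgeR. The SCH772984 points spread to both sides in the plasminogen system and to the right among the other MMPs, while 0 of the compound 1 points are filled. Of those MMPs, MMP10, MMP19 and MMP25 passed the filter on low counts only through their SCH772984 libraries, which favours the right side.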

How the data were processed

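The authors deposited read counts per gene for 9 libraries, without normalization; per the labels, the submitters' processing notes name HISAT2 2.0.5, featureCounts 1.5.0-p3 and hg38, and the strand setting is not given in the sources used here. Coordinates of the 9 genes matched GENCODE release 29 on GRCh38. Each comparison was fitted on all genes of its 6 libraries with edgeR 4.0.16 in R 4.3.3 (quasi-likelihood test, robust; TMM; filterByExpr, minimum count 10 and minimum total 15), and p-values were Benjamini-Hochberg adjusted over all genes tested. The fits were tested on simulated data with 200 changed genes, as many raised as lowered. That is far fewer than were called with SCH772984, so the simulation does not cover a change as broad as that. Ratios were compared by two-sided exact permutation tests over libraries. A count of 0 was taken to allow 3 counts. The totals of 9464432 to 13887859 counts limit precision for genes under about 30 counts.

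The members and the wider list of 96 genes were chosen with earlier results of these data known. Named were all members, list genes called with at least 5 CPM on average (at most 3 per direction, inhibitor and group), genes of a ratio, overlapping genes, the 2 genes most like each member, and SPRY4 and DUSP6, with the exceptions stated; an item withheld from this text is not reported here. The study gives a p under 0.05 without saying whether it was adjusted, and an unadjusted p under 0.05 was an alternative here; others were library-size scaling, RLE, other filters, all libraries in one fit, the replicate block, DESeq2 1.42.0, a 2-fold minimum, TPM for the order of levels, and leaving out each library.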

Additional observations from a re-analysis of the deposited data

How the results depend on the processing

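The calls of MMP1, PLAU, PLAUR and TIMP1 as lower with SCH772984, against DMSO and against compound 1, were the same under every alternative run, leaving out each library included. Of 295 values of single members under alternatives, 282 kept direction and side of the threshold, 6 lost the call and 7 changed sign. The 4 members higher with SCH772984 became 2 when each library had to hold at least 10 counts, which removes MMP14 and PLAT before testing, and 2 with a 2-fold minimum. The 3 members higher than with compound 1 became 1 with that minimum. The wider list then had 13 higher and 5 lower of 43 tested genes with SCH772984, against 18.2% and 10.6% of all tested genes. With compound 1, 2 members were higher at the unadjusted threshold and 0 with the 2-fold minimum, and 0 to 1 when a library was left out. The wider list then had 0 to 1 higher and 0 to 3 lower genes. At the unadjusted threshold 4 list genes were higher, against 7.35% of all tested genes. With the replicate block 2 list genes were called higher, and 2 also when no low-count filter was applied. The share of all genes called in either of those fits is not given here, so these counts cannot be read against genes at large. The replicate numbers did not pair the libraries (correlation of deviations across genes -0.0787 to 0.107 for equal numbers), and not every library correlated best with its own number. The block left the other counts of called genes given here the same. The cause of these moves was not tested, apart from the filter.

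Sign changes were confined, in the alternatives run, to changes that were not called. With a library left out, the compound 1 log2 fold changes ranged from -0.048 to 0.22 for MMP1, from -0.011 to 0.24 for TIMP1 and from -0.063 to 0.044 for TIMP2, which was -0.0050 without a filter. MMP14 between the inhibitors ranged from -0.10 to 0.40. The log2 ratios of compound 1 to DMSO ranged from -0.11 to 0.011 for MMP1/TIMP1 and from -0.33 to 1.28 for PLAU/PLAT. The rank of MMP15 per length with compound 1 was 5 to 6, as was that of PLAUR. MMP14 and PLAT, with at most 39 counts in a library, are limited by depth.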
